A study of Mus musculus with 9 samples.

Results

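The genes described here are 30 genes of the endoplasmic reticulum (ER) and of its stress response, the unfolded protein response. They were chosen by symbol, for their known function but with earlier results of these data known, from the 29229 genes of the deposited count table. All 30 were found there. They comprise 11 chaperones and chaperone partners, 5 protein disulfide isomerases and relatives, 2 translocation proteins, 5 proteins of ER-associated degradation, 3 stress sensors and 4 transcriptional regulators.

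RNA came from live splenic T cells sorted for CD3, the signalling chains of the T-cell receptor, and for CD45.2, the leukocyte allele of the C57BL/6 donors. The 3 groups had 3 libraries each. Naive libraries came from healthy C57BL/6 mice without a transplant. Syngeneic libraries came from irradiated B6.SJL-Ptprca Pepcb/BoyJ recipients (H-2b, CD45.1), matched to the donor, 7 days after a graft of 8500000 splenic T cells that followed 9.5 Gy of radiation. Allogeneic libraries came from CByJ.SJL(B6)-Ptprca/J recipients (H-2d, CD45.1), mismatched to the donor at the major histocompatibility complex, 7 days after a graft of 1000000 splenic T cells that followed 8 Gy in a split dose. Both grafts also held 5000000 C57BL/6 marrow cells depleted of T cells, whose progeny carry CD45.2 too, and all recipients drank acidified water. Donors and recipients were females of 8 to 12 weeks, and each transplant library pooled 2 to 4 recipients. The strain tag of every library names the syngeneic recipient strain, which contradicts the allogeneic protocol, so groups were taken from the titles. Radiation dose, T-cell dose and recipient strain changed together between the transplant groups and cannot be told apart from the mismatch.

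Secreted and membrane proteins are threaded into the ER through the translocon, folded there by chaperones and oxidised by disulfide isomerases, and those that stay misfolded are pulled back to the cytosol for degradation. When unfolded protein accumulates, the sensors IRE1 (Ern1), PERK (Eif2ak3) and ATF6 start the unfolded protein response. IRE1 splices Xbp1 mRNA, cleaved ATF6 enters the nucleus, and PERK phosphorylates the initiation factor eIF2, which lowers translation and favours ATF4, the activator of Ddit3 (CHOP) and Trib3. Activated lymphocytes enlarge their ER as they grow and secrete, and plasma cells carry the most extensive ER of all lymphoid cells.

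Libraries held 103953932 to 176678189 counts. Levels of a member are counts per 1000000 of the column total (CPM). Gm26917 and Gm42418, known as a ribosomal RNA locus, took 15.8 to 18.8% of naive, 19.4 to 22.4% of syngeneic and 7.87 to 17.2% of allogeneic counts, with the highest allogeneic share in library 1. All 10 T-cell markers were present in every library, and their summed level was 5227 to 5739 CPM in naive, 3912 to 4822 in syngeneic and 5376 to 5817 in allogeneic ones, so that the syngeneic libraries lay below both other groups. The summed level of 10 erythroid markers was 6.97 to 7.85, 2163 to 5459 and 15.5 to 40.4 CPM in the same order, led by Hbb-bs, Slc4a1 and Hbb-bt. That of 10 plasma cell markers was 461 to 482, 508 to 1149 and 1317 to 2046 CPM, with no overlap between groups, and Ighm held most of it (473, 443 and 466 CPM in naive libraries, 451, 753 and 849 in syngeneic ones and 931, 994 and 1456 in allogeneic ones), followed by Igkc and Ighg2b. Igkc, the kappa light chain, was at 4.46, 11.2 and 5.34 CPM in naive libraries 1 to 3, at 42.0, 197 and 224 in syngeneic and at 424, 277 and 487 in allogeneic ones. None of these markers is among the 30 genes. The part of cells other than T cells in the results below was not tested. The p-values set differences between groups against the spread between these libraries, where each transplant library is a pool of recipients.

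Chaperone promoters are shown first because the response is known to act through a short element in them, the ER stress element (ERSE), which ATF6 and XBP1 bind with the factor NF-Y. It reads CCAAT, 9 bases and CCACG, and it was defined on promoters of this family, so its presence among them is not an independent result. RefSeq (GRCm38.p6) gave promoter windows of 300 bases, 250 before and 50 after the start, for 26 of the 30 genes. Manf, Derl1, Hyou1 and Atf6 had no window and were not searched. An exact ERSE on either strand was found for 8 of these 26, against 0.119% of all 32851 windows. They are printed on the strand of the gene with the element in capitals; where the gene strand holds the reverse complement, the capitals start with CGTGG.
Hspa5 (chr2:34772010-34772058, plus strand): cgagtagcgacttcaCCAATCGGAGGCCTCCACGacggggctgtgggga
Hsp90b1 (chr10:86705518-86705671, minus strand): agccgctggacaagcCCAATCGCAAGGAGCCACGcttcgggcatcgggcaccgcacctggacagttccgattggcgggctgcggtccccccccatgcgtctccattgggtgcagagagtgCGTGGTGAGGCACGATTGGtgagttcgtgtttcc
Calr (chr8:84847060-84847108, minus strand): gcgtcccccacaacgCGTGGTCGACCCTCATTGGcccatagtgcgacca
Canx (chr11:50325785-50325833, minus strand): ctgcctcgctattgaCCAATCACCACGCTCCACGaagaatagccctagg
Creld2 (chr15:88819505-88819553, plus strand): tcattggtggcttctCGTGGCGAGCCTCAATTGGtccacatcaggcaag
Dnajc3 (chr14:118937812-118937860, plus strand): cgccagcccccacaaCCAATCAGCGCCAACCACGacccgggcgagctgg
Pdia6 (chr12:17266476-17266524, plus strand): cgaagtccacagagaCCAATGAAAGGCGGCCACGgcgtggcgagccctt
Syvn1 (chr19:6046517-6046565, plus strand): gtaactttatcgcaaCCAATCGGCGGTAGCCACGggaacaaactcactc

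Hsp90b1 was the member with a pair of exact elements, one in each orientation. With 1 mismatch allowed in the fixed letters, 13 of the 26 genes had an ERSE, against 1.50% of all windows, the added genes being Ddit3, Herpud1, Pdia3, Pdia4 and Sel1l. The related element ERSE-II, ATTGG, 1 base and CCACG, was found in Dnajb11 and Herpud1, against 0.0365% of windows. The core of the XBP1 element UPRE, TGACGTGG, was found in 1 of the 3 windows of Txndc5 (0.676% of windows). The element of ATF4 and C/EBP factors (CARE), TGATGNAA, was found in Herpud1, Trib3 and Txndc5 (3.97% of windows). All were searched on both strands, an ERSE-II and an ERSE share the letters CCACG, and a match describes the letters, not binding. Herpud1, a membrane protein of the degradation complex, held an ERSE-II and a CARE, both in capitals here, the CARE as its reverse complement. Txndc5, an isomerase, is shown with its UPRE core.
Herpud1 (chr8:94386302-94386402, plus strand): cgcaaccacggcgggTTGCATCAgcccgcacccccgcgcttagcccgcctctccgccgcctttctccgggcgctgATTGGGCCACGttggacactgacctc
Txndc5 (chr13:38528030-38528067, minus strand): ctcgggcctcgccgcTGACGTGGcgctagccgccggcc

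**Figure D1:**
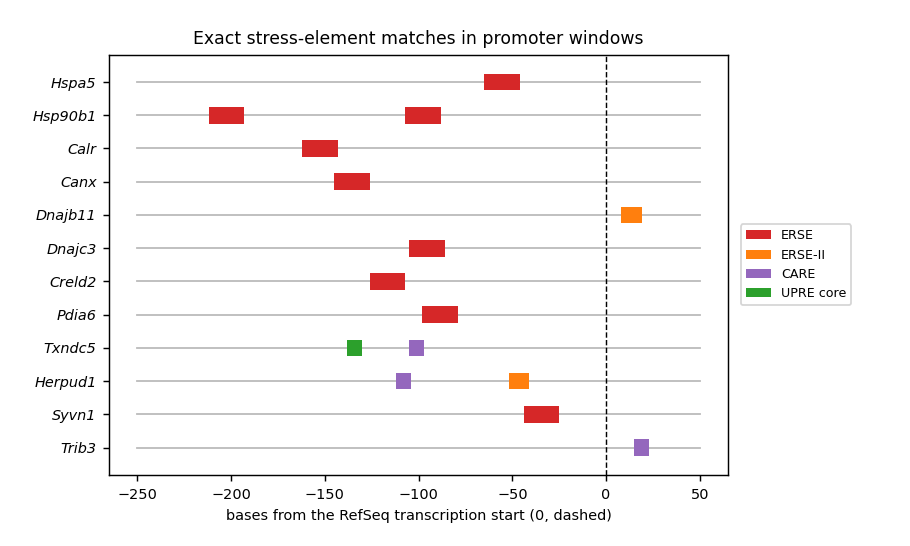
Exact matches of the ERSE, ERSE-II, UPRE core and CARE letters (coloured boxes, to scale) in the 300-base promoter windows of the 12 members that had any, by distance in bases from the RefSeq start. The matches of Txndc5 come from windows of different starts, and those of Dnajb11 and Trib3 lie after the start.

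Per kilobase of merged exon, where levels of different genes can be compared, the chaperone Calr was the most abundant of the 30 genes in each group, at 149 ± 6.35 CPM per kilobase in naive, 174 ± 5.17 in syngeneic and 208 ± 41.9 in the allogeneic libraries (mean ± SD, n = 3). The thiol oxidoreductases Pdia3 and P4hb followed in allogeneic libraries, at 139.7 ± 15.9 and 129 ± 15.5 CPM per kilobase, a difference within their spread. The chaperones Hspa5 and Hsp90b1 came next at 113 ± 17.7 and 107 ± 27.3, also within their spread. In syngeneic libraries Ern1 was the lowest, at 2.64 ± 0.699, with Trib3 at 2.92 ± 0.812, a difference within their spread. Trib3 was the lowest in naive and allogeneic libraries, at 1.67 ± 0.0981 and 1.03 ± 0.158 CPM per kilobase. In naive libraries the sensors Atf6 and Ern1 were next to it, at 2.06 ± 0.173 and 2.29 ± 0.130, and in allogeneic libraries Atf6 stood at 13.2 ± 1.42 CPM per kilobase. All 30 genes had at least 4296 counts over the 9 libraries and all 30 passed the filter on low counts.

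The order of the group means was allogeneic, syngeneic, naive for 20 of the 30 genes. Below, a called gene is one that rose or fell at an adjusted p under 0.05 (Benjamini-Hochberg) in edgeR's quasi-likelihood test, after scaling by the trimmed mean of log ratios (TMM). Against naive libraries, 22 of 30 rose in allogeneic and 14 of 30 in syngeneic libraries, with 3 falling in the former. The background was 31.8% of 19609 tested genes higher and 25.9% lower in the allogeneic comparison, and 22.4% higher and 19.5% lower in the syngeneic one. No member fell in the syngeneic comparison by edgeR's quasi-likelihood test, DESeq2 or limma-voom, and 1 was lower at an unadjusted p under 0.05. Called in either direction were 25 and 14 of 30 (backgrounds 57.7% and 41.9%), and libraries did not overlap for 26 and 24 (backgrounds 65.1% and 56.5%). Median log2 fold changes over the 30 genes were 0.76 and 0.28, against -0.01 and 0.01 over all genes. Both comparisons share the naive libraries. In bulk RNA, a change in the number of cells of a type and in RNA per cell cannot be told apart.

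Allogeneic against syngeneic libraries showed 19 of 30 genes higher and 4 lower, against a background of 24.3% higher and 20.7% lower. In all, 23 of 30 were called in either direction (background 45.0%), and the libraries of the 2 groups did not overlap for 26 of 30 (background 52.7%). The median log2 fold change was 0.46, against -0.02 over all genes. The rise depended on the scaling. With library sizes set by the 10 T-cell markers, whose sum was lower in syngeneic libraries, 4 of 30 were higher and 6 lower. Over all 19609 genes, 1749 were higher and 7766 lower. The median of all genes moved by -0.41 with this scaling, which was chosen after the data were seen. The genes higher under both scalings were Atf6, Ern1, Txndc5 and Xbp1, and the genes lower under both were Trib3, Ddit3, Dnajb9 and Atf4. Edem1 and Herpud1 were lower with the marker scaling alone. Against naive libraries the marker scaling gave 20 higher and 4 lower in allogeneic libraries, with 5140 higher and 4978 lower over all genes. In syngeneic libraries it gave 23 higher, while the median of all genes moved by 0.32.

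**Figure D2:**
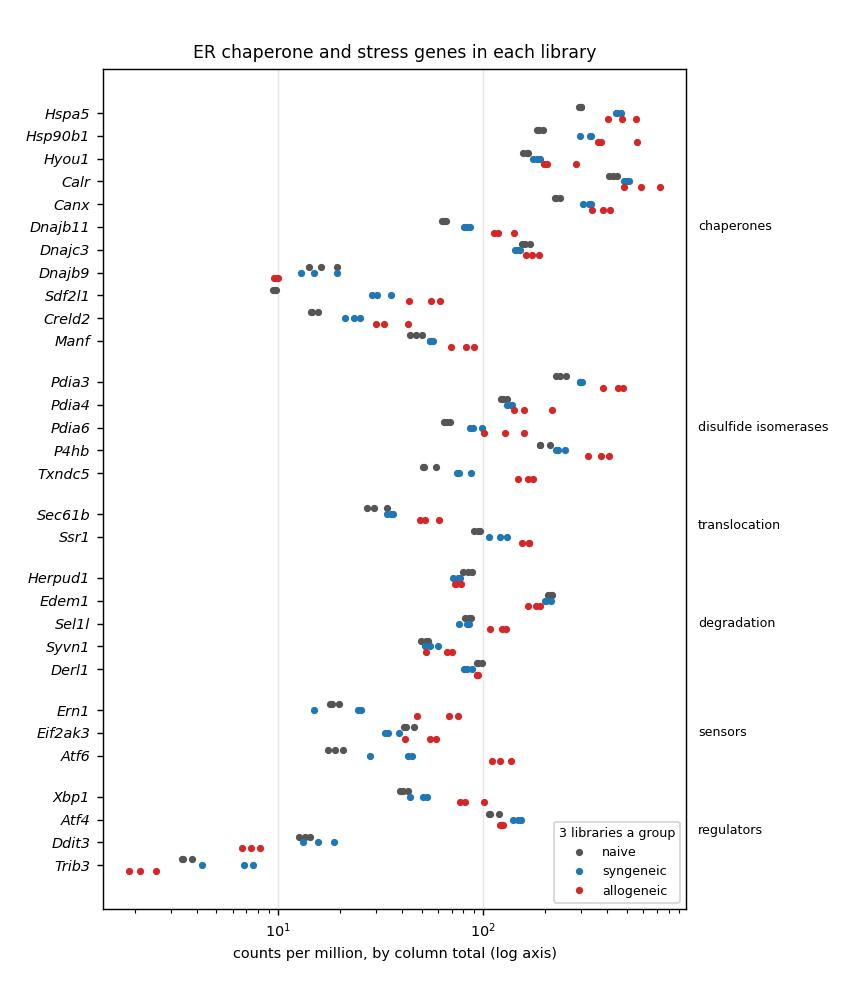
CPM by column total (log axis) of the 30 genes, grouped by role, with 1 point per library and 3 libraries a group. Allogeneic points lie to the right of the others for most chaperones, isomerases and sensors, and to the left for Dnajb9, Ddit3 and Trib3.

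**Figure D3:**
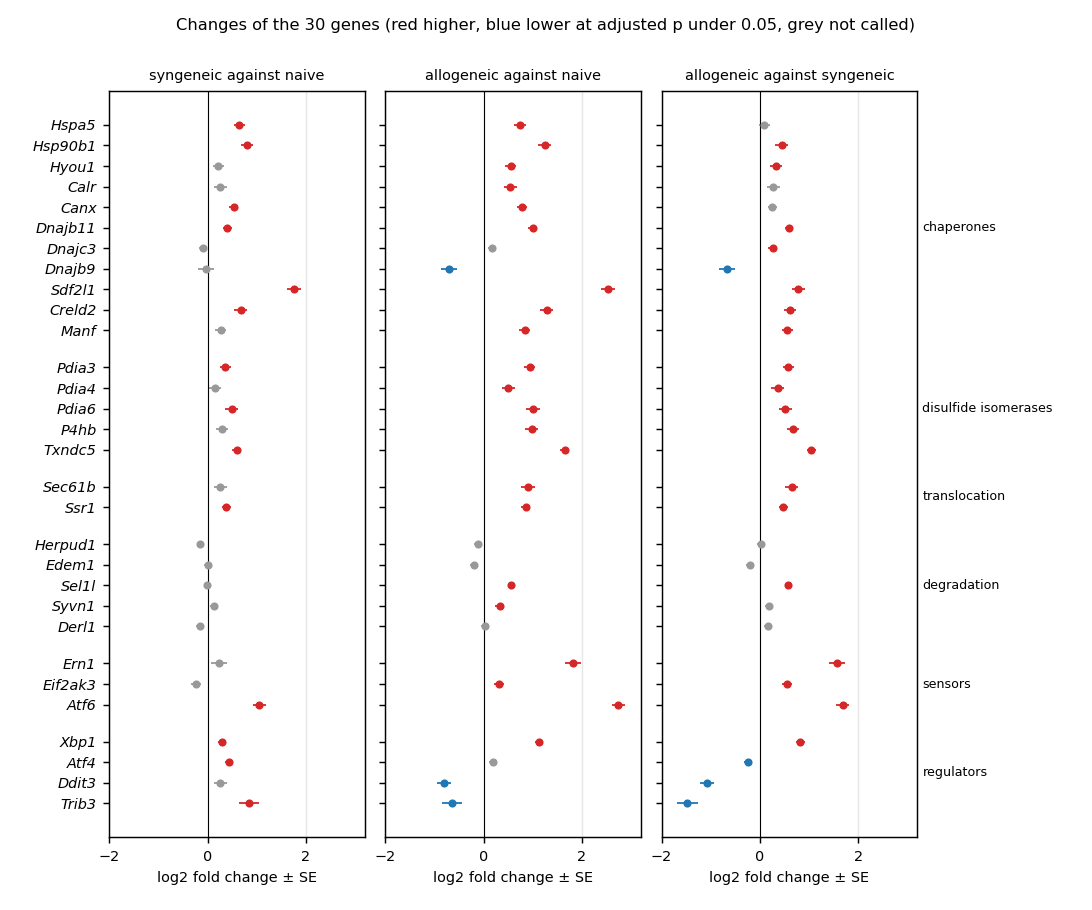
Log2 fold changes with their standard errors for the 30 genes in the 3 comparisons, from edgeR's quasi-likelihood test with TMM scaling (red higher and blue lower at an adjusted p under 0.05, grey not called). The largest rise was that of Atf6 in allogeneic against naive libraries, 2.73 ± 0.13, and Trib3 fell most in allogeneic against syngeneic libraries, -1.47 ± 0.21.

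Among the 11 chaperones and their partners, 9 rose and 1 fell in allogeneic against naive libraries (background 31.8% higher and 25.9% lower), and 6 rose in syngeneic against naive libraries (background 22.4%). Hspa5 (ENSMUSG00000026864, chromosome 2, 34771970 to 34777547 on GRCm38, the build of all coordinates here), the ER chaperone BiP that also holds the sensors inactive, was at 299, 294 and 298 CPM in naive libraries 1 to 3, 448, 466 and 442 in syngeneic and 474, 403 and 553 in allogeneic ones. Both transplant groups lay above all naive libraries and overlapped each other. Its log2 fold change (± standard error, here and below) was 0.74 ± 0.11 for allogeneic (edgeR adjusted p = 0.000184) and 0.64 ± 0.11 for syngeneic against naive libraries (edgeR adjusted p = 0.00082). Between the transplant groups it was 0.09 ± 0.11 (edgeR adjusted p = 0.522), and -0.32 with the T-cell marker scaling.

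Hsp90b1 (ENSMUSG00000020048, chromosome 10, 86690209 to 86705509), the ER member of the HSP90 family that folds integrins and Toll-like receptors, was at 187, 183 and 195 CPM in naive, 296, 333 and 331 in syngeneic and 376, 360.1 and 558 in allogeneic ones. The 3 groups did not overlap, and allogeneic library 3 stood above the others. It rose by 1.24 ± 0.13 on the log2 scale in allogeneic and by 0.80 ± 0.13 in syngeneic against naive libraries. The difference of 0.44 ± 0.13 between the transplant groups (edgeR adjusted p = 0.0169) was 0.23 without allogeneic library 3 (edgeR adjusted p = 0.0887), 0.44 without syngeneic library 2 (edgeR adjusted p = 0.0507) and 0.026 with the T-cell marker scaling. Among allogeneic libraries Hsp90b1 was lowest in library 2 and highest in library 3, as were the plasma cell markers Igkc and Jchain. The other plasma cell markers had other orders, with Ighm at 931, 994 and 1456 CPM and Ighg2b at 128, 7.37 and 28.5 CPM. A link to plasma cell RNA was not tested.

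Sdf2l1 (ENSMUSG00000022769, chromosome 16, 17130138 to 17132383), a stress-induced partner of Hspa5 complexes, had the largest rise of the chaperone group. It was at 9.71, 9.39 and 9.70 CPM in naive, 30.2, 28.7 and 35.6 in syngeneic and 55.4, 43.2 and 61.8 in the allogeneic libraries, without overlap between groups. The log2 fold change was 2.53 ± 0.14 for allogeneic against naive (edgeR adjusted p = 5.91e-08), 1.75 ± 0.14 for syngeneic against naive and 0.78 ± 0.14 between the transplant groups, the last falling to 0.37 with the T-cell marker scaling (edgeR adjusted p = 0.0577). Creld2, a stress-induced protein with disulfide isomerase activity, went from 15.0 ± 0.666 CPM in naive to 23.2 ± 1.94 in syngeneic and 35.2 ± 6.65 in allogeneic ones (mean ± SD, n = 3), and its groups did not overlap either.

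Dnajb11, an HSP40 co-chaperone of Hspa5, rose in both transplant groups against naive libraries, at 63.0 to 65.9 CPM in naive libraries, 80.2 to 85.7 in syngeneic ones and 113 to 142 in allogeneic ones. Manf, a secreted ER stress protein that binds Hspa5, rose in allogeneic against naive libraries by 0.83 ± 0.11, with naive libraries at 44.1 to 50.4 CPM and allogeneic ones at 69.7 to 90.3. Its log2 fold change was 0.27 ± 0.11 in syngeneic against naive libraries (edgeR adjusted p = 0.0715). Manf overlaps Rbm15b and Dcaf1 in the annotation, and the sources used here do not give how such reads were counted. Between the transplant groups Dnajb11 and Manf rose by 0.59 ± 0.09 and 0.56 ± 0.11, and with the T-cell marker scaling they had 0.18 and 0.15, neither called.

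The lectin chaperones Calr and Canx retain glycoproteins, including major histocompatibility class I chains, until they fold. Calr was at 428, 411 and 447 CPM in naive, 502, 485 and 514 in syngeneic and 589, 484 and 725 in the allogeneic libraries, and rose by 0.54 ± 0.13 in allogeneic against naive libraries. Canx rose against naive libraries in both transplant groups, by 0.53 ± 0.10 in syngeneic and 0.78 ± 0.10 in allogeneic ones. Between the transplant groups neither was called, with 0.27 ± 0.13 for Calr (edgeR adjusted p = 0.112) and 0.25 ± 0.10 for Canx (edgeR adjusted p = 0.0515), and both had the opposite sign with the T-cell marker scaling, -0.14 and -0.16. Without allogeneic library 2 both were called, at 0.43 and 0.36, and DESeq2 and limma-voom called Canx with all libraries.

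Hyou1, a large HSP70 relative that exchanges the nucleotide of Hspa5, was at 156 to 164 CPM in naive, 175 to 189.8 in syngeneic and 197 to 283 in allogeneic ones. It rose in allogeneic against naive libraries (0.55 ± 0.12) and against syngeneic ones (0.33 ± 0.12, edgeR adjusted p = 0.0369), the latter not called without naive library 1, syngeneic library 2 or 3 or allogeneic library 1 or 3 (0.34, 0.27, 0.34, 0.35 and 0.16), with library sizes alone (0.32) or with only the 6 transplant libraries (0.33), and of the opposite sign with the T-cell marker scaling (-0.075). Dnajc3 (p58IPK), a co-chaperone that also restrains PERK, was at 154 to 169.7, 143 to 150.4 and 162 to 187 CPM. Its difference between the transplant groups, 0.26 ± 0.08, was called, but not without syngeneic library 2 or 3 or allogeneic library 3 (0.22, 0.22 and 0.20), and was -0.15 with the T-cell marker scaling.

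Dnajb9 (ENSMUSG00000014905, chromosome 12, 44205559 to 44210326), the ERdj4 co-chaperone that returns IRE1 to its inactive complex with Hspa5, went the other way. It was at 19.3, 16.1 and 14.2 CPM in naive, 14.9, 19.4 and 12.9 in syngeneic and 9.79, 9.57 and 9.99 in the allogeneic libraries, so that all allogeneic libraries lay below the other groups, which overlapped. It fell against both, with log2 fold changes of -0.67 ± 0.16 against syngeneic (edgeR adjusted p = 0.00573) and -0.70 ± 0.16 against naive libraries (edgeR adjusted p = 0.00282), and stayed lower with the T-cell marker scaling (-1.09 and -0.80).

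All 5 disulfide isomerases and relatives, which form and shuffle disulfide bonds, rose in allogeneic against naive libraries (background 31.8% higher). All 5 also rose in allogeneic against syngeneic libraries (background 24.3% higher). There, 1 of the 5, Txndc5, was also called with the T-cell marker scaling, under which Pdia4 changed sign. Txndc5 (ENSMUSG00000038991, chromosome 13, 38500079 to 38528824), a thioredoxin-domain protein of the ER, was at 50.7, 51.3 and 59.0 CPM in naive, 74.2, 76.4 and 87.0 in syngeneic and 147, 175 and 164 in allogeneic ones. No groups overlapped, and the lowest allogeneic library was above the highest syngeneic one. It rose 2.07-fold in allogeneic against syngeneic libraries (log2 1.05 ± 0.09, edgeR adjusted p = 5.31e-06) and by 0.64 with the T-cell marker scaling. Against naive libraries the log2 fold change was 1.64 ± 0.09 in allogeneic and 0.60 ± 0.09 in syngeneic libraries. Txndc5 is abundant in plasma cells, and the part of plasma cell RNA in its level was not tested.

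Pdia3 (ERp57), which works with Calr and Canx and in the class I peptide-loading complex, was at 226, 236 and 253 CPM in naive, 301, 296 and 296 in syngeneic and 454, 383 and 479 in the allogeneic libraries. P4hb, the classical protein disulfide isomerase, was at 189, 188 and 212 CPM in naive libraries, 231, 225 and 249.7 in syngeneic ones and 411, 323 and 375 in allogeneic ones. For both, the 3 groups stood apart, with syngeneic libraries close to naive ones. Against syngeneic libraries they rose by 0.58 ± 0.11 and 0.68 ± 0.13, and by 0.17 and 0.26 with the T-cell marker scaling, where neither was called. Pdia6, which also attenuates IRE1, was at 64.1 to 69.0 CPM in naive libraries, 86.3 to 98.0 in syngeneic ones and 101 to 158 in allogeneic ones. Pdia4 (ERp72) was at 122 to 129.7, 129.9 to 138 and 141 to 215 CPM. Their rises against syngeneic libraries, 0.51 ± 0.13 and 0.36 ± 0.13, were not called without allogeneic library 3 (0.36 and 0.18). That of Pdia4 was also lost without naive library 1, syngeneic library 2 or 3 or allogeneic library 1 (0.36, 0.30, 0.36 and 0.36), with library sizes alone (0.35) and with only the 6 transplant libraries (0.36). Against naive libraries Pdia4 rose by 0.50 ± 0.13 in allogeneic ones, not called without allogeneic library 3 (0.29). In syngeneic against naive libraries Pdia3 and Pdia6 rose by 0.36 ± 0.11 and 0.49 ± 0.14, Pdia3 not without naive library 1 or 2 or syngeneic library 1 (0.32, 0.33 and 0.30) and Pdia6 not without naive library 2 (0.44).

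Both translocation genes rose in allogeneic against naive libraries (background 31.8% higher). Sec61b, a subunit of the SEC61 channel, was at 29.5, 27.1 and 33.8 CPM in naive, 36.1, 33.8 and 35.6 in syngeneic and 60.7, 49.3 and 52.1 in allogeneic ones. Ssr1, a subunit of the translocon-associated protein complex, was at 90.3, 94.4 and 96.0 CPM in naive libraries, 106, 130.3 and 120.0 in syngeneic ones and 167, 155 and 167 in allogeneic ones. Allogeneic libraries were above all others for both genes. The log2 fold changes against naive libraries were 0.90 ± 0.14 and 0.86 ± 0.09 in allogeneic libraries. In syngeneic ones they were 0.38 ± 0.09 for Ssr1, which was called, and 0.26 ± 0.14 for Sec61b, which was not. Their rises between the transplant groups, 0.64 ± 0.14 and 0.48 ± 0.09, became 0.23 and 0.05 with the T-cell marker scaling and were then not called.

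Of the 5 degradation genes, 2 rose in allogeneic against naive libraries (background 31.8% higher). Against syngeneic libraries 1 of the 5 rose (background 24.3% higher), so both shares were near the background. Sel1l, the scaffold of the HRD1 ubiquitin ligase complex, was at 84.9, 87.3 and 81.2 CPM in naive, 76.4, 84.7 and 83.5 in syngeneic and 107, 128 and 123 in the allogeneic libraries, with the allogeneic libraries apart from the other groups. It rose by 0.55 ± 0.07 against naive and 0.57 ± 0.07 against syngeneic libraries, and by 0.15 between the transplant groups with the T-cell marker scaling, where it was not called. Syvn1, the HRD1 ligase itself, was at 49.7 to 53.9, 51.8 to 60.0 and 52.4 to 70.5 CPM and rose against naive libraries by 0.32 ± 0.09, though its ranges overlapped and the call was lost without allogeneic library 3 (edgeR adjusted p = 0.0684) and with the T-cell marker scaling (0.24, edgeR adjusted p = 0.135).

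The other degradation genes were not called in any comparison. Herpud1 was at 79.9 to 88.5 CPM in naive, 70.8 to 76.9 in syngeneic and 72.8 to 77.8 in allogeneic ones, and Derl1, a retrotranslocation channel protein, at 92.8 to 98.9, 80.4 to 88.5 and 92.7 to 94.3 CPM. Edem1, a mannosidase-like protein that marks glycoproteins for disposal, was at 206 to 216, 200.5 to 215 and 165 to 189 CPM, with allogeneic libraries below both other groups (-0.20 ± 0.08 against naive, edgeR adjusted p = 0.0577). Edem1 was called lower against naive libraries with library sizes alone (-0.25), with the T-cell marker scaling (-0.28) and with the naive and allogeneic libraries alone (-0.22). For Derl1, the allogeneic mean was below the naive one by column total, while its log2 fold change with TMM was 0.02 ± 0.08.

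The genes of all 3 sensors were higher in allogeneic than in syngeneic libraries (background 24.3% higher). Those of IRE1 and ATF6 rose by the widest margins of the 30 genes. Atf6 (ENSMUSG00000026663, chromosome 1, 170704674 to 170867771), the membrane-bound transcription factor that induces ER chaperones after cleavage, was at 17.4, 20.6 and 19.0 CPM in naive, 28.1, 44.7 and 43.0 in syngeneic and 109.9, 121 and 136 in the allogeneic libraries. The 3 groups were separate, and every allogeneic library was above every syngeneic one. Atf6 rose 6.65-fold against naive libraries (log2 2.73 ± 0.13, edgeR adjusted p = 1.95e-08) and 3.21-fold against syngeneic libraries (log2 1.68 ± 0.13, edgeR adjusted p = 1.83e-06). With the T-cell marker scaling the latter was 1.24 on the log2 scale. Syngeneic libraries were 2.07-fold above naive ones (log2 1.05 ± 0.13).

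Ern1 (ENSMUSG00000020715, chromosome 11, 106394650 to 106487852), which encodes the kinase and endoribonuclease IRE1 alpha, was at 18.2, 19.9 and 17.9 CPM in naive, 15.0, 24.5 and 25.2 in syngeneic and 47.5, 68.2 and 74.9 in allogeneic ones. Naive and syngeneic libraries overlapped, and allogeneic libraries were above both. The log2 fold change was 1.57 ± 0.16 against syngeneic (edgeR adjusted p = 1.82e-05) and 1.81 ± 0.16 against naive libraries, and 1.13 against syngeneic libraries with the T-cell marker scaling. In syngeneic against naive libraries it was 0.23 ± 0.16 (edgeR adjusted p = 0.275), and 0.40 and called without syngeneic library 1. Eif2ak3, the PERK gene, was at 46.0, 40.9 and 41.9 CPM in naive libraries, 33.2, 39.0 and 34.2 in syngeneic ones and 41.4, 59.1 and 55.0 in allogeneic ones, with syngeneic libraries lowest. It rose by 0.55 ± 0.10 against syngeneic libraries and was not called there with the T-cell marker scaling (0.14). Its rise against naive libraries, 0.32 ± 0.10, was lost without naive library 2, allogeneic library 2 or allogeneic library 3 (0.26, 0.24 and 0.24), with library sizes alone (0.27) and with the T-cell marker scaling (0.23).

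The 4 regulators split. Xbp1 (ENSMUSG00000020484, chromosome 11, 5520659 to 5525893), the factor made active by IRE1, was at 40.5, 43.1 and 39.4 CPM in naive, 44.1, 50.5 and 53.0 in syngeneic and 77.2, 81.4 and 100.5 in the allogeneic libraries. Its groups did not overlap, and it rose by 1.12 ± 0.08 against naive and 0.82 ± 0.08 against syngeneic libraries (edgeR adjusted p = 1.65e-05), or 0.41 with the T-cell marker scaling. Gene counts hold the spliced and unspliced forms of Xbp1 together, and cleavage of the ATF6 protein is not seen in RNA. The smaller rise in syngeneic against naive libraries, 0.30 ± 0.08, was lost without naive library 1 or syngeneic library 3 (0.29 and 0.26) and with library sizes alone (0.26).

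Atf4, Ddit3 and Trib3, which act downstream of PERK and of the other eIF2 kinases, fell in allogeneic against syngeneic libraries. Ddit3 (ENSMUSG00000025408, chromosome 10, 127290774 to 127296288), the pro-apoptotic factor CHOP, was at 14.3, 12.6 and 13.5 CPM in naive, 13.2, 18.7 and 15.7 in syngeneic and 7.34, 8.17 and 6.67 in allogeneic ones. Allogeneic libraries were below both other groups, which overlapped. Ddit3 fell, with log2 fold changes of -1.07 ± 0.14 against syngeneic (edgeR adjusted p = 9.73e-05) and -0.81 ± 0.14 against naive libraries (edgeR adjusted p = 0.000408), and was at -1.51 against syngeneic libraries with the T-cell marker scaling. Mars, on the opposite strand, overlaps Ddit3, and the sources used here do not give whether strand was used in counting.

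Trib3 (ENSMUSG00000032715, chromosome 2, 152337422 to 152344032), a pseudokinase induced by ATF4 and CHOP, was at 3.43, 3.78 and 3.42 CPM in naive, 4.25, 6.82 and 7.54 in syngeneic and 2.11, 2.55 and 1.89 in the allogeneic libraries. Syngeneic libraries were the highest and allogeneic the lowest, without overlap. Its log2 fold change was -1.47 ± 0.21 against syngeneic libraries (edgeR adjusted p = 0.000176), -0.64 ± 0.21 for allogeneic against naive (edgeR adjusted p = 0.0191) and 0.83 ± 0.20 for syngeneic against naive libraries (edgeR adjusted p = 0.00651). The call of allogeneic against naive was lost without naive library 2 (edgeR adjusted p = 0.0519). Atf4, the factor whose translation rises when eIF2 is phosphorylated, was at 119, 108 and 107 CPM in naive libraries, 139, 153 and 147 in syngeneic ones and 119.9, 122 and 125 in allogeneic ones. It rose in syngeneic against naive libraries (0.43 ± 0.08) and fell by 0.24 ± 0.08 in allogeneic against syngeneic libraries (edgeR adjusted p = 0.0271), a call that was lost without any 1 of the 3 syngeneic libraries or without allogeneic library 2 and, with all libraries, without the filter on low counts (edgeR adjusted p = 0.0591). Without these libraries in turn the edgeR adjusted p was 0.0569, 0.0562, 0.0545 and 0.0928. Syngeneic library 1, the lowest of its group for Ddit3, Trib3, Atf4, Atf6, Ern1 and Xbp1, also had the lowest erythroid and plasma cell and the highest T-cell marker levels of that group.

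**Figure D4:**
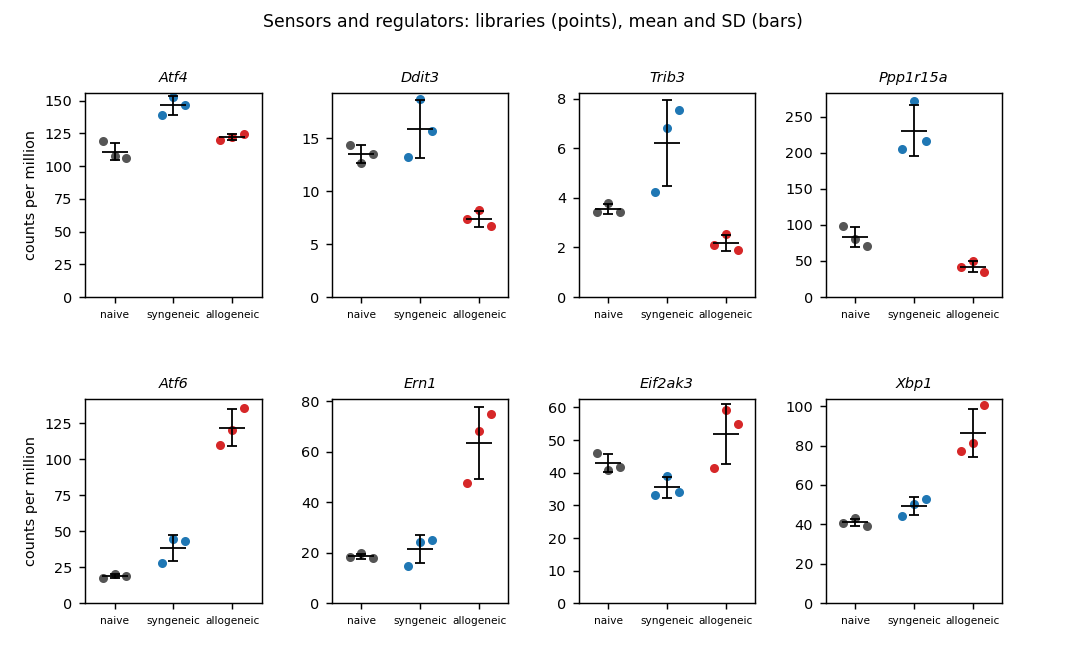
CPM of the sensor and regulator genes and of Ppp1r15a in each library (points), with mean and SD over 3 libraries a group (bars). Atf6, Ern1 and Xbp1 are highest in allogeneic libraries, while Ddit3, Trib3 and Ppp1r15a are lowest there and highest on average in syngeneic libraries.

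Beyond the 30 genes, 86 further ER and stress genes were listed by function, also with earlier results of these data known, and 85 passed the filter. In allogeneic against syngeneic libraries 45 of 85 rose and 8 fell (background 24.3% higher and 20.7% lower), at a median log2 fold change of 0.32. With the T-cell marker scaling 12 rose and 19 fell, beside 1749 and 7766 of all 19609 genes. Most rises lay in 3 roles, with 15 of 20 translocation genes, 14 of 17 degradation genes and 11 of 21 folding genes, and the 8 that fell were 3 of 14 signalling genes, a share near the background, and 5 of 13 integrated stress targets. Ube2g2, a ubiquitin-conjugating enzyme of ER degradation, rose from 45.0 ± 3.35 to 97.0 ± 5.89 CPM (1.12 ± 0.09). Os9, a lectin that delivers glycoproteins to the HRD1 complex, rose from 167 ± 7.74 to 319 ± 21.4 CPM (0.94 ± 0.08), and Ppib, the ER cyclophilin B, from 146 ± 7.77 to 276 ± 23.7 CPM (0.94 ± 0.12).

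Genes of the integrated stress response, which eIF2 kinases drive, are given by the same counts. Of 13 such targets of ATF4 and related factors, 12 rose in syngeneic and 12 in allogeneic against naive libraries (backgrounds 22.4% and 31.8% higher), while 5 fell and 2 rose in allogeneic against syngeneic libraries (background 20.7% lower and 24.3% higher). Asns, asparagine synthetase, was at 0.477, 0.556 and 0.811 CPM in naive, 10.2, 31.8 and 28.3 in syngeneic and 17.2, 8.43 and 11.2 in allogeneic ones. Its log2 fold change was 5.27 ± 0.47 in syngeneic and 4.40 ± 0.45 in allogeneic against naive libraries, and the transplant groups overlapped (-0.87 ± 0.38, edgeR adjusted p = 0.0818). Slc7a11, the cystine transporter, fell from 3.85 ± 1.43 to 1.47 ± 0.394 CPM (-1.36 ± 0.31) and Atf5 from 13.3 ± 1.99 to 7.93 ± 0.564 CPM (-0.72 ± 0.13) between the transplant groups.

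Ppp1r15a, the GADD34 phosphatase subunit that reverses eIF2 phosphorylation, was at 98.5, 80.7 and 71.0 CPM in naive, 205, 271 and 216 in syngeneic and 41.7, 49.7 and 34.4 in the allogeneic libraries, with no overlap among the groups. It rose by 1.50 ± 0.16 in syngeneic against naive libraries and fell in allogeneic libraries, with log2 fold changes of -2.44 ± 0.17 in allogeneic against syngeneic and -0.93 ± 0.16 in allogeneic against naive libraries (edgeR adjusted p = 2.46e-05, 7.58e-07 and 0.000399). It had the order of groups of Trib3.

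Against naive libraries, 55 of 85 listed genes rose and 6 fell in allogeneic libraries (background 31.8% higher and 25.9% lower), and 30 rose and 11 fell in syngeneic ones (background 22.4% higher and 19.5% lower). Fkbp2, an ER prolyl isomerase, rose from 8.10 ± 0.520 to 29.2 ± 1.70 CPM in allogeneic libraries. Mzb1, a chaperone partner of marginal-zone B and plasma cells and also one of the plasma cell markers, was at 0.0670 ± 0.0354, 1.71 ± 1.06 and 2.44 ± 1.43 CPM. The listed genes that fell most included Herpud2, a relative of Herpud1, in both transplant groups (-0.33 ± 0.08 in allogeneic and -0.44 ± 0.08 in syngeneic libraries), and Mbtps1, the protease that cleaves ATF6, in allogeneic libraries (-0.36 ± 0.08, and -0.43 ± 0.08 in syngeneic ones). In syngeneic libraries Creb3l2, a relative of ATF6, and Srprb, a subunit of the signal recognition particle receptor, fell (log2 fold changes -0.81 ± 0.13 and -0.46 ± 0.09). With the T-cell marker scaling, these falls in syngeneic libraries were not called.

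Leading T-cell markers did not move alike, with Thy1 at 868, 850.1 and 992 CPM in naive libraries, 1085, 835 and 941 in syngeneic ones and 1348, 1433 and 1475 in allogeneic ones. The receptor chain gene Cd3e was at 717, 681 and 716, then 497, 406 and 413, then 624, 667 and 705 CPM in the same order, and the kinase gene Lck at 869, 839.7 and 885, then 833, 680.1 and 753, then 813, 876 and 903 CPM. Cd8a went against the sum, at 421, 404 and 453 CPM in naive libraries, 657, 520.4 and 578 in syngeneic ones and 319, 430.0 and 431 in allogeneic ones. Of the 10 markers, 8 had a lower mean in syngeneic than in naive libraries, all but Thy1 and Cd8a, and 9 a lower mean than in allogeneic libraries, all but Cd8a. The marker scaling therefore rests on genes that themselves differed between groups.

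Jchain, which joins immunoglobulin M and A into polymers, was at 5.48, 28.8 and 28.9 CPM in syngeneic and 44.5, 28.9 and 49.5 CPM in allogeneic libraries. The plasma cell surface gene Sdc1 and the receptor gene Tnfrsf17 were far lower, at 2.17, 1.12 and 1.79 CPM and 0.136, 0.0906 and 0.0962 CPM in allogeneic libraries, and Tnfrsf17 was at 0 in 2 naive libraries and 1 syngeneic library. Summed levels of 8 neutrophil and 11 macrophage and dendritic markers were 1.55 to 5.06 and 5.73 to 6.22 CPM in naive libraries, 405 to 1359 and 58.7 to 206 in syngeneic and 602 to 1089 and 191 to 310.4 in allogeneic ones, led by Ngp, S100a9 and Ltf and by Itgax, Lyz2 and Cd68. Itgax, at 8.93, 14.3 and 16.5 CPM in syngeneic and 142, 226 and 224 in allogeneic libraries, carried the rise of the second sum, and 9 of the 11 macrophage and dendritic markers had a lower mean in allogeneic than in syngeneic libraries. Among these were Lyz2, at 34.7, 136 and 142 and 24.5, 26.1 and 58.3 CPM, and Csf1r, at 3.78, 19.6 and 17.6 and 2.09, 1.36 and 1.68 CPM. Summed levels of 7 B-cell markers, led by Cd22, Cd79b and Ms4a1, were 15.6 to 20.2 CPM in naive, 81.2 to 108 in syngeneic and 35.7 to 46.3 in allogeneic libraries. Cd22 carried these changes, with means of 5.81, 72.8 and 26.8 CPM, while Cd79b was at 10.2, 10.6 and 10.8 and Ms4a1 at 1.62, 2.02 and 1.12. Summed levels of 6 NK-cell markers, led by Nkg7, Klrd1 and Klrb1c, were 141 to 149, 254 to 304 and 555 to 634 CPM. Nkg7 held most of that sum, with means of 119, 254 and 529 CPM. Klra4 and Klra8 had lower means in allogeneic than in syngeneic libraries, unlike the other NK-cell markers.

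**Figure D5:**
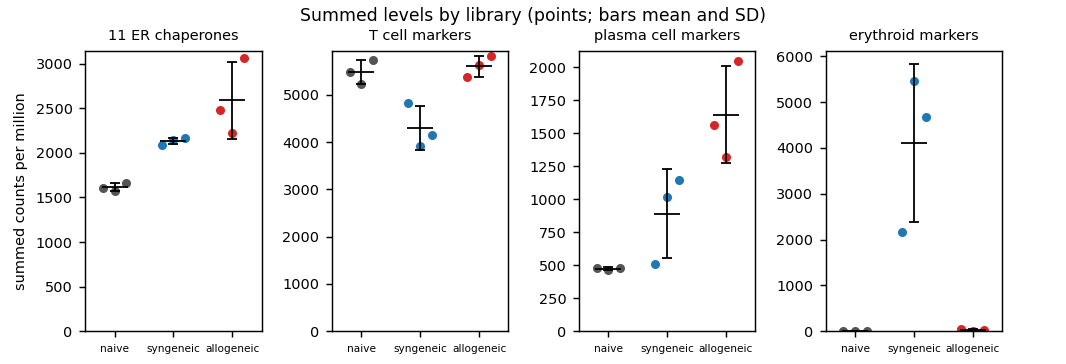
Summed CPM of the 11 ER chaperones and of the T-cell, plasma cell and erythroid markers in each library (points), with mean and SD (bars). Chaperones and plasma cell markers are both highest in allogeneic libraries, and T-cell markers are lowest where erythroid markers are highest, in the syngeneic libraries.

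The 8 genes with an exact ERSE had median log2 fold changes of 0.76 in allogeneic against naive, 0.51 in syngeneic against naive and 0.27 in allogeneic against syngeneic libraries, with 7, 5 and 4 of 8 called higher (backgrounds 31.8%, 22.4% and 24.3%). The medians of all 30 genes were 0.76, 0.28 and 0.46 in the same comparisons, with 22, 14 and 19 of 30 called higher. These 30 include the 8 and also the 4 genes whose promoters were not searched. Of the 8, Dnajc3 was not called against naive libraries in either transplant group, and Calr and Syvn1 were not called in syngeneic against naive libraries. A link between the element and these changes was not tested. With the T-cell marker scaling all 4 calls between the transplant groups were lost (Hsp90b1 0.026, Creld2 0.20, Pdia6 0.098 and Dnajc3 -0.15).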

How the data were processed

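The authors deposited raw read counts per gene for 9 libraries, with Ensembl identifiers. HTSeq 0.6.1, the aligners TopHat2 2.0.13 and Bowtie2 2.2.1, FastQC 0.11.3 and the build GRCm38 appear per the submitters' processing notes. The sources used here do not give annotation release, strand setting or filters. Stranded libraries were made from total RNA after ribosomal RNA depletion, per the labels' protocols. GENCODE M21 gave symbols (29014 of 29229 identifiers), coordinates and merged exon lengths, with the marker Ahsp unmatched; promoters came from RefSeq. Genes kept by filterByExpr (19609) were scaled by TMM and tested by quasi-likelihood in edgeR 4.0.16, all 9 libraries in 1 model with group as its term, at a Benjamini-Hochberg adjusted p under 0.05 over all genes; the SE is the log2 fold change over the root of F. The test was also run on simulated counts in which a small share of genes was raised in the allogeneic group alone, a setting that cannot check the choice of scaling. Alternatives were DESeq2 1.42.0, limma-voom 3.58.1, library sizes alone, no filter, 6 libraries a fit, each library left out, a replicate block and, chosen after seeing the data, T-cell marker scaling. Members and lists were chosen with earlier results of these data known. All 30 members are named. Of the other listed genes, the 3 called genes with the largest change each way per comparison at a mean of at least 1 CPM are named. Of each marker list its 3 most abundant genes are named. Jchain, Sdc1, Tnfrsf17, Igha, Cd8a and Csf1r were named after their values were seen. Protein sequences were not used here. The sources used here do not give whether naive libraries pooled mice. Replicates differed by more than sampling noise.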

Additional observations from a re-analysis of the deposited data

How the results depend on the processing

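Over 30 genes, 3 comparisons and 16 alternatives, 1324 of 1440 log2 fold changes kept their direction and call. Among the others that kept their direction, 53 lost the call and 34 gained it. The remaining 29 changed sign, and calls lost or gained among these are not in the counts of 53 and 34. T-cell marker scaling, added after seeing the data, moved most. It gave 1749 genes higher and 7766 lower in allogeneic against syngeneic libraries, with 4 of the 30 genes higher and 12 other listed genes higher and 19 lower. In syngeneic against naive libraries it gave 1231 genes lower, 23 of the 30 higher and 0 other listed genes lower by edgeR (1 at an unadjusted p under 0.05). Its changes of sign between the transplant groups were Hspa5 -0.32, Hyou1 -0.0751, Calr -0.14, Canx -0.16, Dnajc3 -0.15, Pdia4 -0.0465, Herpud1 -0.39, Syvn1 -0.22 and Derl1 -0.24. Against naive libraries they were Derl1 -0.063 in allogeneic and Dnajc3 0.22, Dnajb9 0.30, Herpud1 0.18, Edem1 0.31, Sel1l 0.31, Derl1 0.18 and Eif2ak3 0.092 in syngeneic libraries. The scaling moved the median of all genes by -0.41 between the transplant groups and 0.32 in syngeneic against naive libraries.

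With library sizes alone, 1 of the 30 genes and 18 other listed genes were lower in syngeneic against naive libraries, and with only the 6 libraries of those groups 2 and 19. Derl1 in allogeneic against naive libraries was -0.0315 and -0.000235 in these fits, and Edem1 in syngeneic against naive libraries was 0.00908 with DESeq2; the cause was not tested. Leaving out 1 library gave 14 to 21 of the 30 genes higher and 3 to 4 lower in allogeneic against syngeneic, 19 to 23 and 2 to 4 in allogeneic against naive and 12 to 16 and 0 to 1 in syngeneic against naive libraries, and 5 to 9, 3 to 8 and 6 to 15 other listed genes lower. The lowest of these last counts came without syngeneic library 3 or allogeneic library 2, without naive library 1 or 3 or allogeneic library 2, and without naive or syngeneic library 3, and the 1 gene without allogeneic library 1. In these fits Hspa5 and Herpud1 ranged from -0.016 to 0.23 and -0.00872 to 0.0691 between the transplant groups, Derl1 from -0.0434 to 0.0733 in allogeneic against naive, and Dnajb9 and Edem1 from -0.19 to 0.10 and -0.0798 to 0.0393 in syngeneic against naive libraries. Same-numbered libraries correlated at -0.12 to 0.26 in their deviations from group means, so the numbers were not taken as pairs. A replicate block gave 19, 23 and 15 of the 30 genes higher, adding calls of Atf4 in allogeneic (edgeR adjusted p = 0.0496) and Manf in syngeneic against naive libraries (edgeR adjusted p = 0.0316), and changed no other call among them. At these depths replicates differed by more than counting noise, so the spread between libraries sets the precision.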
